A study of Homo sapiens with 6 samples.

Results

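Monocytes and macrophages carry a set of surface receptors for antibodies, sugars, microbial products, lipids and other cells, and 60 genes for such receptors, their adaptors and co-receptors were listed by name for their roles, by a rule that sets no threshold on measured values, although earlier results of these data were known when the list was made. Of these, 43 had a row among the 13244 genes of the deposited table and all 43 passed the filter on low counts, while 17 were not analysed here (SIGLEC7, CLEC5A, CLEC7A, MRC1, TLR5, TLR7, CD14, MSR1, CD80, LILRA2, LILRB1, LILRB2, LILRB3, C5AR1, FPR1, FPR2 and P2RY8). The RNA came from MOLM14, an established human AML cell line with monocytic features that carries FLT3-ITD, the internal tandem duplication that keeps the FLT3 kinase active. HSN748 is an inhibitor of FLT3. The tested cultures received 2 nM HSN748 for 24 hours (replicates 7, 8 and 9) and the controls received the solvent DMSO (replicates 1, 2 and 3). All 6 were grown in RPMI medium with 10% FBS from the same line, and the study's methods call each set of 3 biologically independent. A single line of a single genotype was measured.

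Fc receptors bind the constant part of antibodies and either activate the cell, through tyrosine motifs called ITAMs in the receptor or in an adaptor such as TYROBP, or hold it back through motifs called ITIMs. Toll-like receptors bind microbial molecules and work as pairs or with co-receptors, scavenger receptors take up modified lipoproteins, hemoglobin complexes and debris, and lectin receptors bind sugars. Most of these genes are switched on as myeloid precursors become monocytes and macrophages, and several are used to stage that maturation or are targets of antibodies in AML.

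Most of the receptors measured rose in HSN748-treated cells, among them TYROBP, CD86, LY96, CD163 and GPNMB, while the high-affinity Fc receptor FCGR1A and the ectoenzyme CD38 fell. A gene was called at an adjusted p under 0.05 (edgeR quasi-likelihood test, Benjamini-Hochberg over the 13084 genes tested) and a log2 fold change beyond 1, which is 2-fold. By this rule 24 of 43 receptors (55.8%) were called higher, beside 17.0% of all genes tested, and 0 were called lower, beside 14.9% of all genes. The count of receptors called lower was also 0 with DESeq2 and with limma-voom. The lowest log2 fold change in edgeR was -0.93 (CD38), so no receptor could be called lower there at any p. CD38 was called lower (-1.01) when DMSO replicate 3 was left out. By adjusted p alone 30 were higher, against a share of 36.6% of all genes, and 4 were lower, against 36.5% (FCGR1A, SIRPB1, CD38 and SCARB1, the last of which did not pass under 3 other scalings). The remaining 9 did not pass. The median log2 fold change of the 43 receptors was 1.13, and that of all genes tested was 0.01. Of the 24 called higher, 11 rose between 2- and 4-fold and 13 by more, 6 of them over 8-fold. All 3 HSN748 cultures lay above all 3 DMSO cultures in library-scaled counts (CPM) for 32 receptors, beside 38.3% of all genes, and below them for 5, beside 37.1%. For 6 receptors the cultures overlapped.

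**Figure D1:**
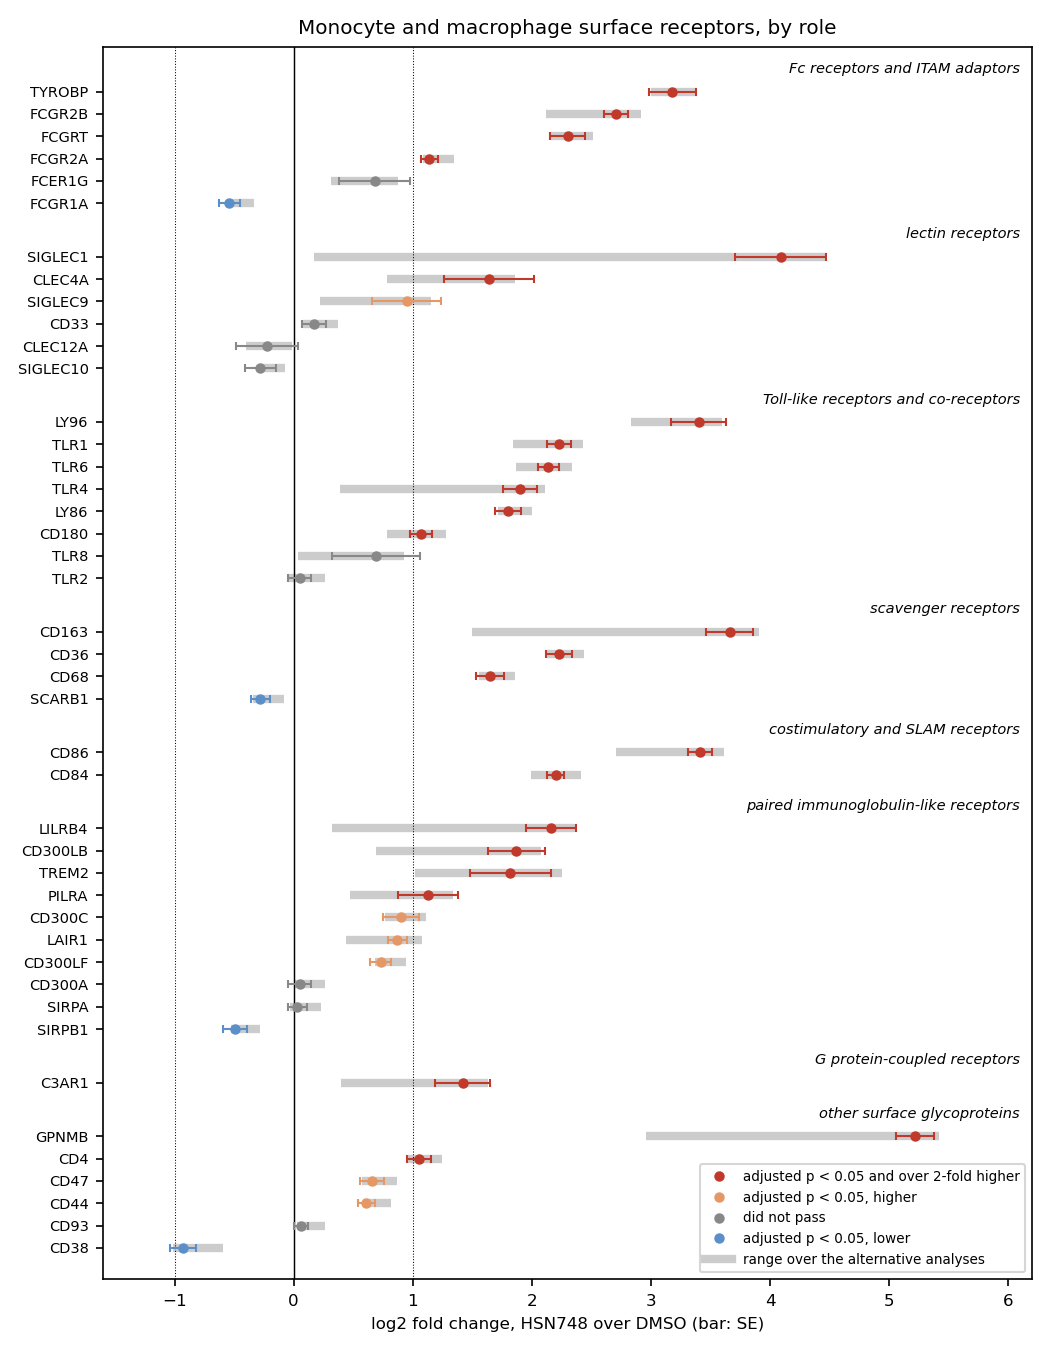
Log2 fold change of HSN748 over DMSO for each of the 43 receptors, grouped by role, with a horizontal bar for the standard error (3 cultures each) and a grey band for the range over the alternative analyses. Of the 43 points, 24 are red (adjusted p under 0.05 and over 2-fold higher), 6 orange, 9 grey and 4 blue, and SCARB1 among the blue ones reaches -0.08 at the right end of its band.

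The libraries held 35277785 to 47691631 counts in HSN748 and 38363312 to 59279430 in DMSO, and the 10 most abundant genes took 7.59 to 8.27% and 4.8 to 5.18% of them. Over all genes tested 2230 were called higher and 1949 lower, a balance that became 2809 against 1488 with upper-quartile scaling and 2638 against 1604 when scaled to 12 reference genes. Of 10 markers of monocyte and macrophage identity, 9 were tested and their CPM summed to 2268 to 2364 in HSN748 and 1413 to 1462 in DMSO, led in both by lysozyme (LYZ, 1229 to 1305 and 731 to 786 CPM). Of these 9 markers 6 passed higher (beside 36.6% of all genes) and 2 passed lower (beside 36.5%). The macrophage growth factor receptor CSF1R (log2 fold change 4.37) and the integrin ITGAX (3.37) rose most. The 2 that passed lower were S100A9 (-0.64) and CEBPB (-0.56), and IRF8 did not pass (0.09). The cultures of CEBPB overlapped, and it passed in 6 of 16 alternative analyses. S100A9 passed in 13 of 16, and its DMSO cultures spread from 34.2 to 58.9 CPM. Markers of other cell types were few in the table, with 1 of 9 for T and NK cells, 2 of 6 for B cells, 3 of 6 for granulocytes, 2 of 6 for fibroblasts and endothelium, and none analysed here for erythroid cells and platelets. Summed CPM were 17.0 to 20.6 in HSN748 and 8.64 to 12.8 in DMSO for the T and NK marker NKG7, 14.6 to 18.7 and 50.9 to 54.7 for B cells (mostly PAX5), 234 to 239 and 44.2 to 57.9 for granulocytes (mostly CSF3R), and 589 to 656 and 209 to 212 for fibroblasts and endothelium (mostly PECAM1). Directions were mixed for granulocytes, where MPO was called lower (-2.26) while CSF3R was called higher (2.53). They were mixed for B cells too, where CD79A was called higher (1.35) while PAX5 was called lower (-1.69). NKG7 passed higher (0.85). The fibroblast and endothelium markers COL1A1 (2.61) and PECAM1 (1.54) were both called higher, beside 17.0% of all genes. The part of these markers in the results was not tested. In bulk RNA a change in the number of cells that express a receptor and a change in its RNA per cell cannot be told apart.

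Levels are given below as RPKM, the counts of a gene per kilobase of its deposited length and of the library's size after TMM scaling (relative to the same total as CPM), because only a value per length can be set beside that of another gene. LILRB4 and LAIR1 are given in CPM, since their deposited lengths add up copies on 5 sequence names. Fold changes come from the count test. With 3 cultures against 3, exact permutation of the labels for 1 gene gives no two-sided p below 0.1, so it is not given.

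More receptors reached a high level in HSN748. Of 41 with a level per length, 20 reached a mean of at least 10 RPKM in HSN748, against 13 in DMSO. The highest means in HSN748 were those of LY86 (155 ± 18.9 RPKM), TYROBP (115 ± 15.5 RPKM), CD68 (114 ± 13.1 RPKM), CD36 (65.9 ± 2.46 RPKM) and CD44 (55.5 ± 2.44 RPKM, SD, n = 3 each). The HSN748 cultures of TYROBP and CD68 overlapped. In DMSO the order of the highest was LY86 (44.6 ± 4.24 RPKM), CD68 (36.3 ± 4.58 RPKM), CD44 (36.3 ± 1.93 RPKM), SIRPA (34.8 ± 2.61 RPKM) and SCARB1 (30.9 ± 2.28 RPKM, SD, n = 3 each). In that order the DMSO cultures of each gene overlapped those of the next. TYROBP stood above 97.5% of all genes tested in HSN748 and above 62.4% in DMSO. The lowest were SIGLEC1 and TLR8, which stayed under 0.2 RPKM in every culture.

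**Figure D2:**
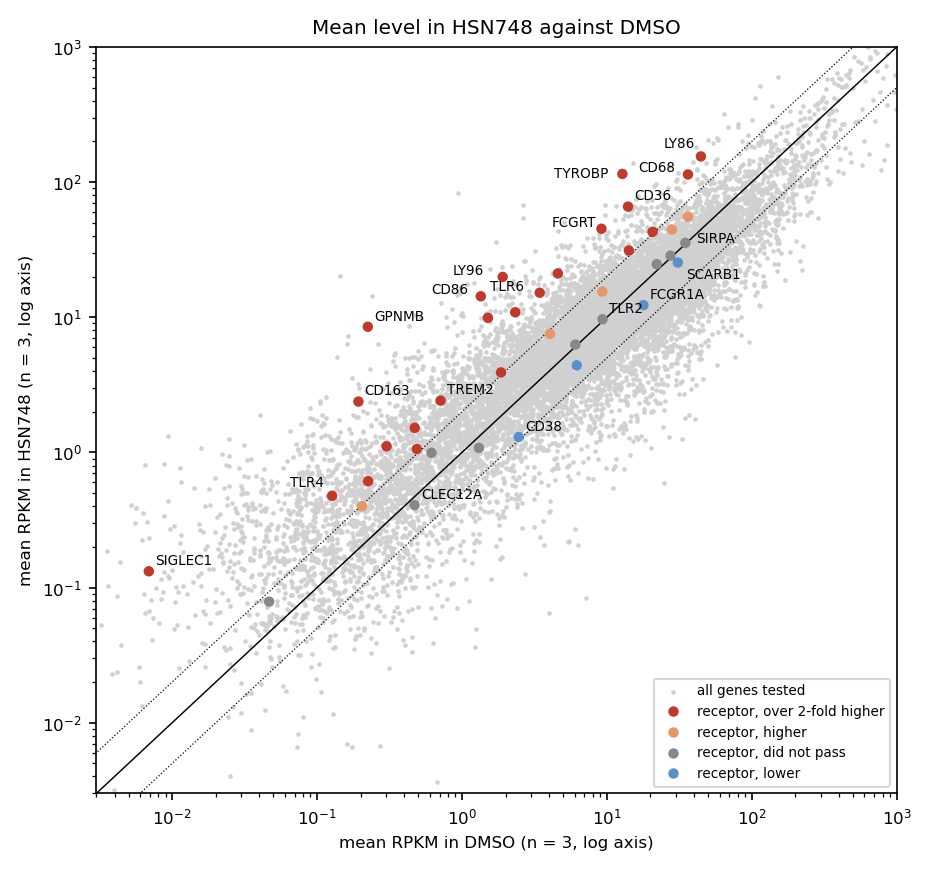
Mean RPKM in HSN748 (vertical, log axis) against mean RPKM in DMSO (horizontal, log axis), n = 3 each, for the 41 receptors with a level per length and, in light grey, for all genes tested with a mean above 0 in both; the solid line marks equal levels and the dotted lines 2-fold differences. LY86 (155 against 44.6 RPKM) and TYROBP (115 against 12.8 RPKM) have the highest levels in HSN748 and lie above the upper dotted line. SIRPA (35.5 against 34.8 RPKM) lies close to the solid line.

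Grouped by their mean in DMSO, the 13 receptors at 10 RPKM or more had 6 called higher and a median log2 fold change of 0.66. The 15 from 1 to 10 RPKM had 8 called higher and a median of 1.07, and the 13 under 1 RPKM had 9 and a median of 1.64. The DMSO level enters both sides of this grouping, so it is given as a description. A receptor of the lowest class could also pass the count filter through its HSN748 cultures alone, as SIGLEC1 did (4, 2 and 1 counts in DMSO libraries). That tilts the lowest class toward receptors that rose, and no share of all genes was computed for these classes. The 4 receptors that passed lower were FCGR1A and SCARB1 in the highest class and SIRPB1 and CD38 in the middle class.

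Among Fc receptors and their adaptors, 4 of 6 were called higher (beside 17.0% of all genes). A further 1 passed lower (beside 36.5%) and 1 did not pass. The group's median log2 fold change was 1.72. The inhibitory receptor and the adaptor TYROBP rose most, while the high-affinity receptor fell. TYROBP, also called DAP12, is a small ITAM adaptor that carries the signal of TREM2, SIRPB1 and CD300LB, and lies on chromosome 19 from 35904406 to 35908295. It had 124, 97.1 and 124 RPKM in HSN748 and 12.6, 9.24 and 16.5 RPKM in DMSO. The lowest HSN748 culture was far above the highest DMSO culture, and the log2 fold change was 3.18 (standard error 0.20, adjusted p = 1.2e-06). FCER1G, the other ITAM adaptor and the common gamma chain of activating Fc receptors, was near the limit of detection with 21 to 29 counts in HSN748 libraries and 11 to 24 in DMSO libraries. Its log2 fold change of 0.68 (standard error 0.30, adjusted p = 0.072) did not pass, although it passed in 5 of 15 alternative analyses. The TYROBP to FCER1G ratio of RPKM was 108, 103 and 139 in HSN748 and 17.8, 21.0 and 23.5 in DMSO, so TYROBP was the more abundant of these adaptors in every culture.

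FCGR2B, the inhibitory IgG receptor with an ITIM (chromosome 1 from 161663115 to 161678654), had 9.25, 10.5 and 9.97 RPKM in HSN748 and 1.5, 1.46 and 1.57 RPKM in DMSO. That is a log2 fold change of 2.71 (standard error 0.10, adjusted p = 8.9e-08), and the cultures of each group lay close together. FCGR2A, the activating low-affinity receptor with its own ITAM (chromosome 1 from 161505457 to 161519829), had 32.1, 30.6 and 31.0 RPKM in HSN748 and 14, 14 and 14.5 RPKM in DMSO, a log2 fold change of 1.14 (standard error 0.07, adjusted p = 8.8e-07). The ratio of inhibitory FCGR2B to activating FCGR2A was 0.288, 0.343 and 0.322 in HSN748 and 0.107, 0.105 and 0.108 in DMSO. FCGR2A thus stayed the more abundant of the pair, by a smaller margin in all 3 HSN748 cultures. FCGR2A and FCGR2B share 16.7% and 12.5% of their 50-base stretches with other genes in GENCODE 29 transcripts, mainly FCGR2C, so reads may have been divided between them and their values are uncertain to that extent. FCGR2C itself had a log2 fold change of 3.51 (adjusted p = 2.6e-08).

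FCGR1A, the high-affinity IgG receptor (chromosome 1 from 149782694 to 149792518), had 13, 11.1 and 12.8 RPKM in HSN748 and 17.3, 17.4 and 18.9 RPKM in DMSO. Every HSN748 culture was below every DMSO culture and the log2 fold change was -0.54 (standard error 0.09, adjusted p = 6.4e-04). It shares 55.4% of its 50-base stretches with other genes, mainly FCGR1B and the pseudogene FCGR1CP. On the opposite strand the gene model AC243772.2 covers 25.7% of its exons and the histone gene HIST2H2BF 4.86%. The use of strand in counting is not given in the sources used here. Both copies, looked up after the values of FCGR1A were seen, fell too, FCGR1B by 0.94 and FCGR1CP by 1.34 on the log2 scale (adjusted p = 0.0011 and 5.0e-04). The ratio of FCGR2B to FCGR1A was 0.71, 0.945 and 0.779 in HSN748 and 0.0865, 0.0843 and 0.083 in DMSO. FCGRT, the neonatal Fc receptor chain that recycles IgG and albumin (chromosome 19 from 49512661 to 49526428), shared no 50-base stretch with another gene and had 45.8, 42.0 and 47.8 RPKM in HSN748 and 9.10, 7.30 and 11.1 RPKM in DMSO. Its log2 fold change was 2.30 (standard error 0.15, adjusted p = 1.3e-06).

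Promoter sequence was read from RefSeq (GRCh38.p14) as the 300 bases from 250 before to 50 after each gene's start, for 30 of the 43 receptors that had an entry. The string GAGGAAG, bound by the myeloid factor PU.1, was found on either strand in 10 of these 30 (33.3%) and in 13.4% of all 27305 promoters, and it was in 6 of 17 promoters of receptors called higher and 4 of 13 of the others. A match is a description of the letters and not a bound site. The promoters of FCGR1A and FCGR2A are shown because they hold the match at nearly the same place, 47 and 46 bases before the start, while FCGR1A fell and FCGR2A rose, and that of TYROBP because it holds 2 matches, at -230 and -11. Positions count the start base as +1 and give the first base of a match, which is in capitals (CTTCCTC is the same string read from the other strand). The coordinates are chr1:149782444-149782743 and chr1:161505207-161505506 on the plus strand and chr19:35908246-35908545 on the minus strand, and the starts used for these 3 genes are those of the deposited table.
FCGR1A: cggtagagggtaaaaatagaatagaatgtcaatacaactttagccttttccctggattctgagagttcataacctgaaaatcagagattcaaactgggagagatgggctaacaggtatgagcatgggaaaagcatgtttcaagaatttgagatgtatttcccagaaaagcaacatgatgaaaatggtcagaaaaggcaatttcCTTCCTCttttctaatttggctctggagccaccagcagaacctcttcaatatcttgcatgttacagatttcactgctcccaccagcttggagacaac
FCGR2A: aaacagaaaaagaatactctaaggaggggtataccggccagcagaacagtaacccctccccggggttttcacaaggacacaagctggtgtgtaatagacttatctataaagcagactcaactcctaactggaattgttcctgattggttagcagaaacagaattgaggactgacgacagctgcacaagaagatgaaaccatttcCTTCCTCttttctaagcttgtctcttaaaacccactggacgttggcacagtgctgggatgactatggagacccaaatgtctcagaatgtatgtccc
TYROBP: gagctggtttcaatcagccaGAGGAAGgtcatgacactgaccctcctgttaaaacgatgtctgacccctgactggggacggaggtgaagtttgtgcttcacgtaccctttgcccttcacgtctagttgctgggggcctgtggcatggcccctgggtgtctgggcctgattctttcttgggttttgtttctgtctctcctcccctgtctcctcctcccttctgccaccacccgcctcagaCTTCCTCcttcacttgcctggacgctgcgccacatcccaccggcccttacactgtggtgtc

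Lectin receptors had 2 of 6 called higher (33.3%, beside 17.0% of all genes), too few genes to set apart from that share. The lectin receptors had a median log2 fold change of 0.56, with 1 more that passed under 2-fold and 3 that did not pass. CD33, a sialic acid-binding inhibitory receptor and antibody target in AML (chromosome 19 from 51225080 to 51240016), had the highest level of them, with 25.6, 23.0 and 25.7 RPKM in HSN748 and 22.9, 19.3 and 24.0 RPKM in DMSO. The cultures overlapped and its log2 fold change of 0.17 (standard error 0.10, adjusted p = 0.17) did not pass, but passed under 3 other scalings (0.29 to 0.37). SIGLEC1, the macrophage receptor sialoadhesin, was close to absent, with 40, 35 and 44 counts in HSN748 libraries and 4, 2 and 1 in DMSO libraries. The groups were apart and the log2 fold change was 4.09 (standard error 0.38, adjusted p = 1.3e-05), at a level under 0.2 RPKM in every culture. CLEC4A, an inhibitory C-type lectin, had 1.86, 1.64 and 1.07 RPKM in HSN748 and 0.596, 0.626 and 0.194 RPKM in DMSO, a log2 fold change of 1.64 (standard error 0.38, adjusted p = 0.0039). Its value is uncertain because a read-through gene model shares 59.2% of its 50-base stretches.

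SIGLEC9, another inhibitory receptor of that family, had 31 to 40 counts in HSN748 libraries and 11 to 24 in DMSO libraries and a log2 fold change of 0.95 (standard error 0.29, adjusted p = 0.017). It did not pass without HSN748 replicate 7, without DMSO replicate 1 or without DMSO replicate 3 (0.79 to 0.95). SIGLEC10 had a log2 fold change of -0.28 (adjusted p = 0.077), with 1.02 to 1.13 RPKM in HSN748 and 1.28 to 1.38 RPKM in DMSO, groups that did not overlap. CLEC12A, an inhibitory lectin receptor of myeloid and AML cells, had -0.22 (adjusted p = 0.46) and 0.358 to 0.46 RPKM in HSN748 against 0.338 to 0.608 RPKM in DMSO. Neither of these last 2 passed.

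Toll-like receptors and their co-receptors had 6 of 8 called higher (beside 17.0% of all genes) and none lower (beside 14.9%). The group's median log2 fold change was 1.85. The members that rose were the partners of TLR2 and the receptors with their small secreted co-receptors, while TLR2 itself did not pass. TLR2, which binds bacterial lipoproteins only as a pair with TLR1 or TLR6, had 9.57, 9.98 and 9.47 RPKM in HSN748 and 9.88, 10.1 and 8.03 RPKM in DMSO. These overlapped and the log2 fold change was 0.05 (standard error 0.10, adjusted p = 0.68), although it passed with upper-quartile scaling (0.26), under which the median of all genes was 0.21. TLR1, the partner for triacylated lipoproteins (chromosome 4 from 38796255 to 38804791), had 11.2, 10.3 and 11.2 RPKM in HSN748 and 2.20, 2.47 and 2.32 RPKM in DMSO, and rose by 2.23 on the log2 scale (standard error 0.10, adjusted p = 1.5e-07). TLR6, the partner for diacylated ones (chromosome 4 from 38823708 to 38856817), had 15.5, 15.2 and 14.8 RPKM in HSN748 and 3.55, 3.75 and 3.03 RPKM in DMSO, a log2 fold change of 2.14 (standard error 0.09, adjusted p = 1.6e-07). In HSN748 both partners were above TLR2 in RPKM, with TLR1 to TLR2 ratios of 1.17, 1.03 and 1.19 and TLR6 to TLR2 ratios of 1.62, 1.52 and 1.56. In DMSO both were below it, at 0.222, 0.244 and 0.289 and at 0.359, 0.37 and 0.378.

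LY96, or MD-2, is the co-receptor that holds lipopolysaccharide for TLR4. It had 25.5, 18.8 and 15.5 RPKM in HSN748 and 1.64, 1.77 and 2.33 RPKM in DMSO, a log2 fold change of 3.40 (standard error 0.23, adjusted p = 1.9e-06). The HSN748 cultures spread more than for the other Toll-like receptors but stayed far above DMSO. TLR4 itself was low, with 0.447, 0.473 and 0.514 RPKM in HSN748 and 0.138, 0.129 and 0.114 RPKM in DMSO, and rose by 1.90 on the log2 scale (standard error 0.14, adjusted p = 3.9e-06). The deposited length of TLR4 is 12797 bases. CD14, the other co-receptor of TLR4, was not analysed here.

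CD180 is a Toll-like receptor relative without a signaling domain, which needs LY86, or MD-1, to reach the surface. LY86 (chromosome 6 from 6588720 to 6654982) was the most abundant receptor gene per length, with 176, 139 and 151 RPKM in HSN748 and 44.0, 40.7 and 49.1 RPKM in DMSO. Its log2 fold change was 1.80 (standard error 0.11, adjusted p = 1.0e-06). CD180 had 3.95, 3.71 and 4.07 RPKM in HSN748 and 1.81, 1.87 and 1.91 RPKM in DMSO, a log2 fold change of 1.07 (standard error 0.09, adjusted p = 6.9e-06). Both rose, and the LY86 to CD180 ratio was 44.5, 37.4 and 37.0 in HSN748 and 24.4, 21.8 and 25.7 in DMSO. TLR8, an endosomal receptor for single-stranded RNA, had 14 or 15 counts in HSN748 libraries and 5 to 15 in DMSO libraries and did not pass (log2 fold change 0.69, adjusted p = 0.12). The LY86 promoter (chr6:6588470-6588769, plus strand) is shown as that of the most abundant receptor gene and holds the PU.1 string at -53 and again inside the gene at 39.
LY86: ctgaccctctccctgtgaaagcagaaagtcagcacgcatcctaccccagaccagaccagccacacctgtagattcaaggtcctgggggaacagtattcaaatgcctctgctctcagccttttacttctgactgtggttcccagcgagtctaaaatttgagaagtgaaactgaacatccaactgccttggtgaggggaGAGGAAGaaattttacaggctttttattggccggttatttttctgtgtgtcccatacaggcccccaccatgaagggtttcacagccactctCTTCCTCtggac

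**Figure D3:**
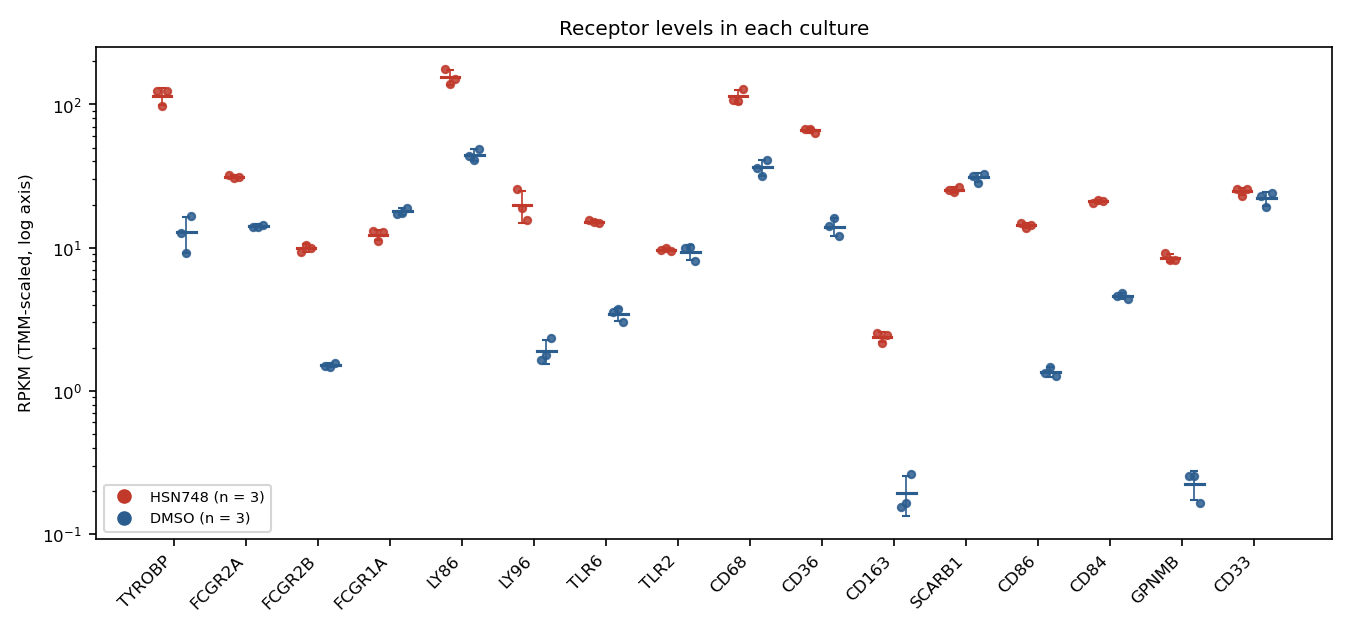
RPKM in each culture (log axis) for 16 receptors, HSN748 (red, left) and DMSO (blue, right), with points for cultures, a line for the mean and bars for the SD (n = 3 each). For TLR2 (9.47 to 9.98 RPKM in HSN748 and 8.03 to 10.1 in DMSO) and CD33 the groups overlap, for FCGR1A and SCARB1 HSN748 is lower, and for the other 12 all HSN748 cultures are higher.

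Scavenger receptors had 3 of 4 called higher (beside 17.0% of all genes) and 1 that passed lower (beside 36.5%). The group's median log2 fold change was 1.94. CD36, which takes up oxidized lipoproteins and fatty acids (chromosome 7 from 80602207 to 80679277), had 67.5, 67.1 and 63.0 RPKM in HSN748 and 14.1, 16 and 12 RPKM in DMSO. The groups were well apart, with a log2 fold change of 2.23 (standard error 0.11, adjusted p = 2.9e-07). SCARB1, which takes up cholesterol from HDL (chromosome 12 from 124776856 to 124863864), had 25.3, 24.3 and 26.7 RPKM in HSN748 and 31.9, 28.3 and 32.5 RPKM in DMSO. It fell by 0.28 on the log2 scale (standard error 0.08, adjusted p = 0.010), a call that was lost with upper-quartile, total-count and reference-gene scaling (-0.08 to -0.16) and without HSN748 replicate 7 or 8 (-0.26 and -0.23). CD36 was the more abundant of these lipid receptors in HSN748, at 2.67, 2.76 and 2.36 times SCARB1, and the less abundant in DMSO, at 0.443, 0.567 and 0.368 times.

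CD163, the macrophage receptor for hemoglobin bound to haptoglobin (chromosome 12 from 7470811 to 7503818), had 2.54, 2.15 and 2.46 RPKM in HSN748 and 0.153, 0.163 and 0.263 RPKM in DMSO. This was the largest fold of the group, with a log2 fold change of 3.66 (standard error 0.20, adjusted p = 5.7e-07). CD68, a glycoprotein of endosomes and lysosomes used as a macrophage marker (chromosome 17 from 7579638 to 7582111), had 108, 105 and 129 RPKM in HSN748 and 36.1, 31.9 and 41.1 RPKM in DMSO, a log2 fold change of 1.65 (standard error 0.12, adjusted p = 2.4e-06). A read-through gene model shares 74.3% of its 50-base stretches, so its value is uncertain.

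Of the costimulatory and SLAM receptors, CD86 and CD84 were both called higher (beside 17.0% of all genes), and CD80 was not analysed here. CD86, a ligand of CD28 and CTLA4 on T cells (chromosome 3 from 122055362 to 122121141), had 14.9, 13.7 and 14.5 RPKM in HSN748 and 1.32, 1.47 and 1.26 RPKM in DMSO. The log2 fold change was 3.41 (standard error 0.10, adjusted p = 3.0e-08), the smallest adjusted p of all receptors. CD84, which binds itself on other leukocytes (chromosome 1 from 160541094 to 160579516), had 20.6, 21.5 and 21.3 RPKM in HSN748 and 4.57, 4.82 and 4.39 RPKM in DMSO, a log2 fold change of 2.20 (standard error 0.07, adjusted p = 4.2e-08). The CD86 promoter (chr3:122055112-122055411, plus strand) is shown for that rise and holds the PU.1 string at -77 and inside the gene at 11.
CD86: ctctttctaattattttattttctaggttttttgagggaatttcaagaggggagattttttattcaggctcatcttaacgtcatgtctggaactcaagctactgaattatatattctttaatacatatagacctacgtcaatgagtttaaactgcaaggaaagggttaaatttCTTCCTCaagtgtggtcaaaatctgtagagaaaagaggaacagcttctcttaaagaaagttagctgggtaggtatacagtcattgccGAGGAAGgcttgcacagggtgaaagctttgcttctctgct

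The paired immunoglobulin-like receptors, in which inhibitory and activating relatives sit in gene clusters, had 4 of 10 called higher (beside 17.0% of all genes). A further 3 passed under 2-fold, 1 passed lower (beside 36.5%) and 2 did not pass. The group's median log2 fold change was 0.89. Both inhibitory and activating members rose. LILRB4, an inhibitory receptor of monocytes and monocytic AML (chromosome 19 from 54662819 to 54670359), had 6.16, 6.46 and 7.77 CPM in HSN748 and 1.70, 1.04 and 1.82 CPM in DMSO, a log2 fold change of 2.16 (standard error 0.21, adjusted p = 2.0e-05). LAIR1, an inhibitory collagen receptor (chromosome 19 from 54351386 to 54370556), had 33.8, 35.8 and 36.8 CPM in HSN748 and 19.4, 19.0 and 19.7 CPM in DMSO, and rose by 0.87 on the log2 scale (standard error 0.08, adjusted p = 1.2e-05). LILRB4 shares 14.2% of its 50-base stretches with other genes. TREM2, a lipid receptor that signals through TYROBP (chromosome 6 from 41158508 to 41163116), was low, with 2.64, 2.11 and 2.51 RPKM in HSN748 and 0.371, 0.672 and 1.09 RPKM in DMSO, a log2 fold change of 1.82 (standard error 0.34, adjusted p = 0.0011). TYROBP was far above it in every culture, at 47.2, 46.1 and 49.3 times the RPKM of TREM2 in HSN748 and 33.9, 13.7 and 15.1 times in DMSO.

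Within the CD300 cluster of chromosome 17 the members CD300LB, CD300C and CD300LF rose, and the inhibitory CD300A did not pass. CD300LB, which signals through TYROBP, had 1.30, 1.15 and 0.888 RPKM in HSN748 and 0.333, 0.237 and 0.336 RPKM in DMSO, a log2 fold change of 1.87 (standard error 0.24, adjusted p = 1.1e-04). CD300C, an activating member, had 7.74, 6.94 and 7.99 RPKM in HSN748 and 3.72, 3.48 and 4.96 RPKM in DMSO, a log2 fold change of 0.90 (standard error 0.15, adjusted p = 5.1e-04). CD300LF, mostly inhibitory, rose by 0.73 (standard error 0.09, adjusted p = 1.1e-04), with 14.7 to 16 RPKM in HSN748 and 8.64 to 10.2 RPKM in DMSO. CD300A had 6.78, 6.13 and 5.94 RPKM in HSN748 and 5.75, 6.00 and 6.42 RPKM in DMSO, which overlapped (log2 fold change 0.05, adjusted p = 0.65). The activating CD300C was above CD300A in HSN748, at a ratio of 1.14, 1.13 and 1.34, and below it in DMSO, at 0.647, 0.58 and 0.772. PILRA, an inhibitory receptor, had a log2 fold change of 1.13 (standard error 0.25, adjusted p = 0.0027) on 56 to 59 counts in HSN748 libraries and 26 to 29 in DMSO libraries.

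SIRPA, the inhibitory receptor that binds CD47 on other cells and restrains phagocytosis, had the highest level of the paired receptors, with 35, 34.0 and 37.5 RPKM in HSN748 and 35, 32.1 and 37.3 RPKM in DMSO. The cultures overlapped and the log2 fold change was 0.03 (standard error 0.08, adjusted p = 0.76). SIRPB1, its activating relative that pairs with TYROBP (chromosome 20 from 1564383 to 1620094), had 4.55, 3.98 and 4.70 RPKM in HSN748 and 6.11, 5.87 and 6.61 RPKM in DMSO, and fell by 0.49 on the log2 scale (standard error 0.10, adjusted p = 0.0015). CD47, the ligand of SIRPA, had 43.4, 48.4 and 41.8 RPKM in HSN748 and 28.4, 31.5 and 24.4 RPKM in DMSO and rose by 0.66 (standard error 0.10, adjusted p = 3.8e-04). The SIRPA to CD47 ratio was 0.807, 0.702 and 0.897 in HSN748 and 1.23, 1.02 and 1.53 in DMSO. SIRPA and SIRPB1 share 12% and 20.1% of their 50-base stretches with other genes, in part with each other.

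**Figure D4:**
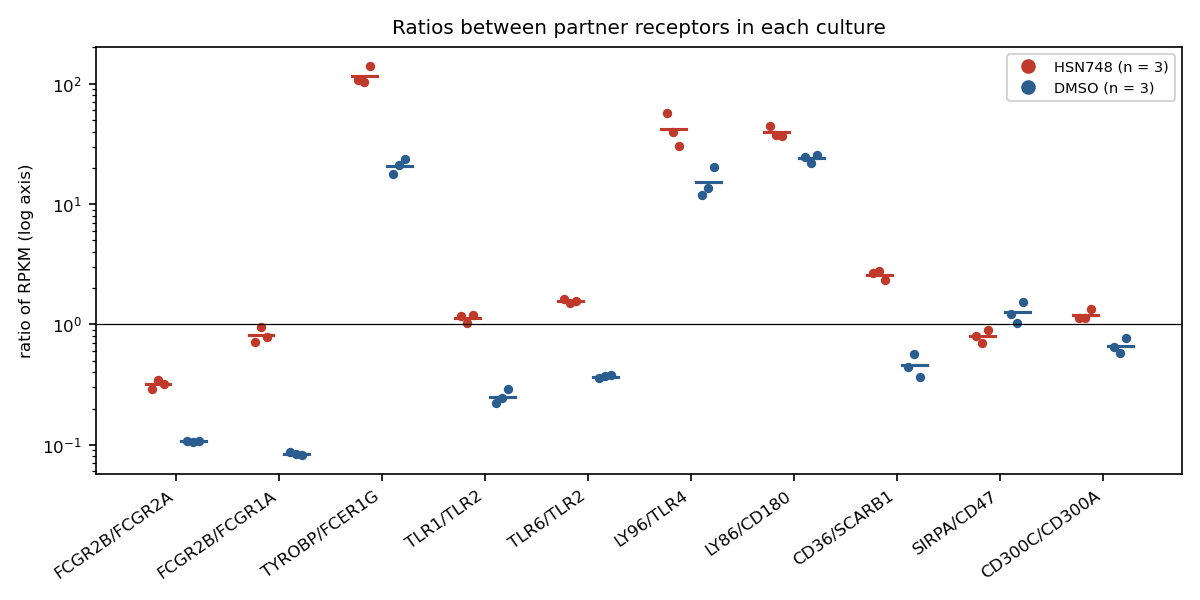
Ratio of the RPKM of 2 receptors or of a receptor and its partner in each culture (log axis), HSN748 (red, left) and DMSO (blue, right), with a line at the mean and a thin line at equal levels (n = 3 each). TLR1 and TLR6 over TLR2, CD36 over SCARB1 and CD300C over CD300A lie above 1 in HSN748 and below 1 in DMSO, and SIRPA over CD47 lies the other way round.

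Over 12 such ratios computed, all 3 HSN748 cultures lay above all 3 DMSO cultures in 11 and below them in 1, SIRPA to CD47. The pairs were chosen for known partnership with the fold changes in view and the ratios hold the same counts, so they are a description and carry no test. The direction of each ratio depends on which gene was put on top, so the count of 11 against 1 is not a result.

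Of the 5 chemoattractant and other G protein-coupled receptors only C3AR1, the receptor for complement fragment C3a, was tested. It had 0.709, 0.594 and 0.538 RPKM in HSN748 and 0.278, 0.176 and 0.221 RPKM in DMSO, a low level at which the groups stayed apart, with a log2 fold change of 1.42 (standard error 0.23, adjusted p = 5.2e-04).

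Other surface glycoproteins had 2 of 6 called higher (33.3%, beside 17.0% of all genes), too few genes to set apart from that share. A further 2 passed under 2-fold, 1 passed lower (beside 36.5%) and 1 did not pass. The group's median log2 fold change was 0.64. GPNMB, a glycoprotein of lysosomes and the surface of macrophages (chromosome 7 from 23246775 to 23275108), had 9.18, 8.16 and 8.18 RPKM in HSN748 and 0.252, 0.255 and 0.164 RPKM in DMSO. The log2 fold change, the highest of all receptors, was 5.22 (standard error 0.16, adjusted p = 3.6e-08). It stood above 54.1% of all genes tested in HSN748 and above 8.58% in DMSO. CD4, a co-receptor of T cells that monocytes also carry, had 41.1, 38.8 and 48.6 RPKM in HSN748 and 20.7, 19.4 and 22.1 RPKM in DMSO, a log2 fold change of 1.05 (standard error 0.10, adjusted p = 1.5e-05), which fell under the 2-fold threshold without HSN748 replicate 9 (0.96). CD44, the hyaluronan receptor, rose by 0.61 (standard error 0.07, adjusted p = 6.6e-05), with 54.1 to 58.3 RPKM in HSN748 and 34.8 to 38.5 RPKM in DMSO. CD93, a C-type lectin-like receptor of monocytes and AML stem cells, had 27.8, 29.2 and 29 RPKM in HSN748 and 27.6, 28.4 and 26.5 RPKM in DMSO, which overlapped (log2 fold change 0.06, adjusted p = 0.44). CD38, an enzyme that consumes NAD and a marker of earlier and activated leukocytes (chromosome 4 from 15778328 to 15853232), had 1.32, 1.33 and 1.24 RPKM in HSN748 and 2.48, 2.73 and 2.19 RPKM in DMSO. It showed the lowest log2 fold change of all receptors, -0.93 (standard error 0.11, adjusted p = 8.1e-05), and was called lower (-1.01) when DMSO replicate 3 was left out.

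The string TCATGTG, bound by the MITF family, was in the promoters of CD163 and GPNMB and of no other of the 30 (6.67%, beside 2.99% of all promoters). The AP-1 string TGANTCA was in 5 of the 30 (16.7%), FCGR2B, CD180, CD68, C3AR1 and GPNMB, and in 7.76% of all promoters. All 5 belonged to receptors called higher, of which 17 had an entry, and none to the 13 others. Several strings were searched, the counts are small and this split was not tested. The FCGR2B promoter read (chr1:161646993-161647292, plus strand) lies upstream of that gene's deposited start at 161663115. Its match is thus not at the start of the gene as counted. The same holds for CLEC12A and LAIR1, which hold the PU.1 string. The CLEC12A promoter (chr12:9971159-9971458, plus strand) lies inside the gene, whose deposited start is 9951268. That of LAIR1 (chr19:54364882-54365181, minus strand) lies inside the gene too, since on that strand its deposited start is 54370556. For LILRB4 and CD163 the starts differ by less. The C/EBP string TTGCNNAA was in 16.7% (10.6% of all promoters), and the composite element for PU.1 with an IRF factor in 13.3% (2.84% of all), in the last case TLR4, CD68, LILRB4 and CD38. CACGTG was in 1 of the 30 (TLR2, 3.33%, beside 7.43%), the ETS string CCGGAAG in 1 (FCER1G, beside 10.7%) and the FOXO string TGTTTAC in none, beside 3.41%. Split into receptors called higher and the others, the MITF string was in 2 and 0 promoters and the C/EBP string in 4 and 1. The composite element was in 3 and 1, and CACGTG and the ETS string were each in 0 and 1. The strings were searched on both strands, and those that contain GGAA can overlap, as at -105 and -100 in TLR4. The GPNMB promoter (chr7:23246525-23246824, plus strand) is shown because it holds the MITF string at -123 and -62 and the AP-1 string at -134.
GPNMB: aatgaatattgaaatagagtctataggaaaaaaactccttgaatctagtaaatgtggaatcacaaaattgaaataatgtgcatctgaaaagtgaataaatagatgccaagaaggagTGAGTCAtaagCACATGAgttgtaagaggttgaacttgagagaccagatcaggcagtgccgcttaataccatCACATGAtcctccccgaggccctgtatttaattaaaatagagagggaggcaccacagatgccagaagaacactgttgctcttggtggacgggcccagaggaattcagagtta

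Relatives of the receptors that were not among the 60 were called higher in most cases where they were tested. Of 50 further genes of the same families 19 were tested, of which 12 were called higher (63.2%, beside 17.0% of all genes) and none lower (beside 14.9%). By adjusted p alone 13 passed higher (68.4%, beside 36.6%) and 1 passed lower (CD209, -0.46, beside 36.5% of all genes), and the median log2 fold change was 1.39. TLR10, next to TLR1 and TLR6 on chromosome 4, had 105, 74 and 98 counts in HSN748 libraries and 5, 2 and 3 in DMSO libraries, a log2 fold change of 4.81 (standard error 0.31, adjusted p = 1.5e-06). C5AR2, the second receptor for complement C5a, had 0.938, 0.929 and 1.04 RPKM in HSN748 and 0.0727, 0.0682 and 0.0876 RPKM in DMSO, a log2 fold change of 3.67 (standard error 0.17, adjusted p = 2.0e-07). The count of 12 includes low genes, and it was 8 when a gene needed at least 1 CPM in 3 libraries. Either filter can be met by the HSN748 cultures alone, as by TLR10 (1.97 to 2.45 CPM in HSN748 and 0.0472 to 0.0867 CPM in DMSO). For such genes a rise was a condition of being tested, so the counts of relatives called higher are a description.

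Genes that carry the receptors' signals inside the cell were called higher about as often as all genes. For ITAM and ITIM signaling, 5 of 32 were called higher (15.6%, beside 17.0% of all genes) and 2 lower (beside 14.9%). By adjusted p alone 18 passed higher (56.2%, beside 36.6%) and 2 passed lower (beside 36.5%), and the median log2 fold change was 0.22. BLNK, an adaptor below SYK, had 17.2, 17.6 and 17.7 RPKM in HSN748 and 2.61, 2.39 and 1.82 RPKM in DMSO, a log2 fold change of 2.93 (standard error 0.13, adjusted p = 2.0e-07). The adaptor DAPP1 rose by 1.58 (adjusted p = 1.3e-06). CARD9, which links C-type lectin receptors to NF-kappaB, fell by 1.23 on the log2 scale (adjusted p = 2.2e-05), and PTPN11, the SHP2 phosphatase, by 1.09 (adjusted p = 6.0e-06). SYK, the kinase that ITAMs recruit, was chosen for mention after its values were seen. It had 38.2, 37.8 and 42.2 RPKM in HSN748 and 39.5, 39.5 and 40.8 RPKM in DMSO and did not pass (-0.02, adjusted p = 0.82). For Toll-like receptor signaling, 5 of 26 tested genes of 30 were called higher (19.2%, beside 17.0% of all genes) and 1 lower (beside 14.9%). By adjusted p alone 15 passed higher (57.7%, beside 36.6%) and 7 passed lower (beside 36.5%), with a median log2 fold change of 0.36. SARM1, an adaptor that restrains this pathway, rose by 2.13 (adjusted p = 3.3e-07), the kinase IRAK2 by 3.05 (adjusted p = 2.0e-06) and the factor IRF5 by 1.07 (adjusted p = 1.1e-05), while the ubiquitin ligase TRAF3 fell by 1.07 (adjusted p = 4.2e-06).

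Of the 34 receptors that passed, 32 passed in every alternative analysis that tested them, the exceptions being SCARB1 and SIGLEC9. The number called higher ranged from 16, in limma on log2(RPKM + 1), to 27, with upper-quartile or reference-gene scaling.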

How the data were processed

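RNA of 6 MOLM14 cultures (3 HSN748, 3 DMSO) was sequenced with a NEB Single Cell/Low Input kit. The authors deposited raw counts per gene with a gene length and coordinates. Of tools, bcl2fastq and STAR appear in the submitters' processing notes. For versions, counting program, strand setting, annotation, genome build and the filter that left 13244 genes, the entry is: not given in the sources used here. Columns of the authors' own normalized values, fold changes and p-values were not used.

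Counts were tested with edgeR 4.0.16 in R 4.3.3 (filterByExpr, which removed 160 genes and left 13084, TMM factors 0.946 to 1.07, quasi-likelihood test, Benjamini-Hochberg). The biological coefficient of variation was 11.2%. RPKM used the deposited length and TMM-scaled totals. The alternatives were other scalings, other filters, DESeq2 1.42.0, limma 3.58.1 (voom, and log2 of RPKM with a pseudocount of 1 or 0.1) and leaving out each culture. The scripts were tested on simulated data. Tables were made with pandas 2.3.3 under Python 3.11.15, plots with matplotlib 3.10.9.

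The members and lists were chosen with earlier results of these data known. The text names in each role group up to 5 members with the smallest adjusted p, any member called against its group and the member with the highest RPKM, and in each further list up to 3 genes per direction past both thresholds. Other members are given by value. A gene of the signaling lists that this rule names is not reported here. The p-values set the difference between groups against the spread between cultures, which edgeR estimates in part from all genes. With 3 cultures per group their precision is limited. Shared 50-base stretches were counted in GENCODE 29 transcripts, and promoter strings in RefSeq. The deposited start was the same as in RefSeq GRCh38.p14 for 27 of 43 members. A planned search of protein features was not run.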

Additional observations from a re-analysis of the deposited data

How the results depend on the processing

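No paired analysis was possible because the cultures are numbered 1 to 3 in DMSO and 7 to 9 in HSN748 and share no number. RLE factors, DESeq2 and limma-voom changed no call of a receptor. Upper-quartile, total-count and reference-gene scaling gave medians of 0.21, 0.13 and 0.16 for all genes (0.01 with TMM) and of 1.34, 1.26 and 1.29 for the receptors. With these 3 scalings scavenger receptors passing lower became 0, Toll-like signaling genes called lower 0 and passing lower 4, and ITAM and ITIM genes called lower 1. Upper-quartile scaling also left 0 relatives passing lower and turned SYK to 0.19. On log2(RPKM + 1), which compresses low genes, the receptor median was 0.65, and calls of higher fell to 16 receptors in all, 0 lectin receptors, 1 paired receptor, 0 G protein-coupled receptors, 4 relatives, 2 Toll-like signaling genes and 974 of all genes, with 1 lectin receptor passing lower, 1 ITAM and ITIM gene and 0 Toll-like signaling genes called lower. On log2(RPKM + 0.1) the receptor median was 1.04. Requiring 1 CPM in 3 libraries left 39 receptors with a median of 1.18 and, of the lectin receptors, 1 called and 1 passing higher. Leaving out each culture gave 23 to 25 receptors called higher, 0 to 1 called lower (CD38, without DMSO replicate 3) and a median of 1.05 to 1.16. It gave 0 to 1 scavenger receptors passing lower, 1 to 2 other glycoproteins called higher and 0 to 1 called lower, 1 to 2 relatives passing lower, 10 to 17 ITAM and ITIM genes passing higher (10 without DMSO replicate 1) and 4 to 7 Toll-like signaling genes passing lower. Low counts limit SIGLEC1, TLR8, FCER1G, SIGLEC9 and PILRA.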
